A study of Mus musculus with 16 samples.

Results

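Hypusination is the spermidine-dependent modification of the translation factor eIF5A, and it is described here through the 4 mouse genes that carry it: Eif5a and Eif5a2, which encode the isoforms of eIF5A, and Dhps and Dohh, which encode the modifying enzymes. The genes were chosen by name, with earlier results of these data known. All 4 were found by symbol among the 32989 gene identifiers of the count table. All 4 passed the filter on low counts (a mean of 5 or more over the 16 libraries) and so were among the 19049 genes tested. In C57BL/6J hair follicle stem cell (HFSC) organoids, a 3D co-culture of HFSCs and their progeny grown for 2 weeks from mouse epidermal cells, progenitors (α6+/CD34-) were separated by cell sorting from HFSCs (α6+/CD34+). The organoids had either been left untreated or had received N1-acetylspermidine (N1-AcSpd), an acetylated form of spermidine, for 72 h. Each of 4 wild-type donor mice gave 1 library to each of the 4 groups (CD34- untreated, CD34- N1-AcSpd, CD34+ untreated and CD34+ N1-AcSpd), so each group has n = 4. Mouse 1 is the same animal throughout, as read from a code shared in the labels. All 16 libraries were therefore cultured cells sorted on integrin α6 and CD34, grown from epidermis taken in telogen, the resting phase of the hair cycle. The study's methods describe donors of both sexes at juvenile and young adult telogen ages, without tying an age or a sex to these libraries, and the dose of N1-AcSpd is not used here. The readout was 3′ RNA sequencing in which a unique molecular identifier (UMI) tags each molecule, so the values describe mRNA and carry no measure of eIF5A protein or of hypusine itself.

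eIF5A binds the ribosome near the exit site and helps peptide bond formation where ribosomes stall, for example at runs of proline, and it also helps release the finished chain. It is active only after 1 lysine has been turned into hypusine. Deoxyhypusine synthase, encoded by Dhps, moves the aminobutyl group of spermidine onto that lysine, and deoxyhypusine hydroxylase, encoded by Dohh, adds the hydroxyl group. Eif5a is the isoform gene used in nearly all tissues, while Eif5a2 is known from testis and brain and from tumours. The pathway links polyamine supply with translation, which is the reason to look at it in cells that were given a polyamine.

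The modified lysine is shared by the isoforms, and the coding sequence around it is shown because it is the substrate site of both enzymes. Eif5a (ENSMUSG00000078812) lies on the minus strand at chr11:69916714-69921958 of GRCm38, the assembly also called mm10, and Eif5a2 (ENSMUSG00000050192) on the plus strand at chr3:28781276-28798846. Codons 40 to 60, counted from the start codon, are printed 5′ to 3′ in the sense of the mRNA, with the lysine codon 50 in capitals. In the Eif5a transcript used they lie in exons 3 (chr11:69919151-69919198) and 4 (chr11:69918007-69918021), and in that of Eif5a2 in exons 2 (chr3:28782169-28782216) and 3 (chr3:28782728-28782742). Exons are numbered as annotated for that transcript, non-coding ones included.
Eif5a: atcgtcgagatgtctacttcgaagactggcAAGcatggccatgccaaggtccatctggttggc
Eif5a2: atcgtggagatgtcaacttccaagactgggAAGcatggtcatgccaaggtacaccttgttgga
Between these stretches 9 of 63 bases differed and 0 of 21 codons encoded another residue. Over the whole coding sequences, of 154 codons in Eif5a and 153 in Eif5a2, 72.7% of the 462 aligned bases were identical. The transcripts shared little with other genes where 3′ tags fall. Of the 31-base words of the Eif5a2 transcript, the word length kallisto uses by default, 7 of 4997 occurred in another gene, and 0 of 470 in its last 500 bases. Of those of Eif5a, 199 of 1407 occurred in another gene, 160 of them in the pseudogene Eif5al3-ps, but only 8 of 470 in the last 500 bases, all in the gene model Gm42779. Eif5al3-ps had from 0 to 45 counts a library and Gm42779 from 0 to 3, against 6532 to 13650 for Eif5a.

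Library totals ran from 15480075 to 29074855 UMIs, with group means of 21989498 in CD34- untreated, 26768371 in CD34- N1-AcSpd, 17763751 in CD34+ untreated and 18681075 in CD34+ N1-AcSpd. Levels are given as CPM, that is UMI counts brought to a common library total after TMM scaling, which centres the libraries on the bulk of their genes. The sort marker Cd34 lay between 2.87 and 3.65 CPM in the CD34- libraries and between 43.4 and 64.0 CPM in the CD34+ libraries. Every library thus matched the sorted fraction in its label, while treatment and mouse cannot be checked by this marker. Markers of other cell states differed between the fractions. The summed level of 6 suprabasal keratinocyte markers, of which 6 of 6 were called lower in CD34+ cells in both conditions, was 1000 to 1347 CPM in CD34- untreated, 1212 to 1526 in CD34- N1-AcSpd, 280.0 to 303 in CD34+ untreated and 293 to 382 in CD34+ N1-AcSpd libraries. That of 8 dividing cell markers, of which 7 were called higher in CD34+ cells in both conditions, was 336 to 380 CPM, 326 to 405 CPM, 428 to 516 CPM and 494 to 588 CPM in the same order. No marker of these 2 lists was at 0 in a whole group, and 2 of the 6 suprabasal markers were called higher with N1-AcSpd in the mean of both cell types. Of 8 HFSC and basal markers 4 were called higher and 2 lower in CD34+ cells in each condition. Of all tested genes, 16.1% were called lower and 16.1% higher in untreated CD34+ cells, and 16.8% and 16.5% in N1-AcSpd cells. For the treatment in the mean of both cell types, 4.86% were called. Summed fibroblast markers stayed at or below 1.52 CPM, immune markers at or below 2.08 CPM and melanocyte markers between 9.38 and 12.6 CPM. The melanocyte sum was mostly Pmel, with group means from 9.87 to 10.6 CPM. The group means of Mlana, Dct, Tyr and Tyrp1 were each at or below 0.556 CPM. Since these are sorted populations measured in bulk, fewer cells of a type and less RNA per cell cannot be told apart. The part of differentiation or division in the differences of the hypusination genes was not tested.

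Eif5a, the main substrate, was lower in HFSCs than in progenitors. In mice 1 to 4 its level was 457, 472, 472 and 476 CPM in CD34- untreated and 371, 390.0, 384 and 372 CPM in CD34+ untreated libraries. The groups did not overlap and every mouse was lower in its CD34+ cells. The group means were 469 ± 8.33 CPM and 379 ± 9.20 CPM (SD, n = 4), a decrease of 19.1% (95% interval -23.0 to -15.1%), or -0.31 on the log2 scale (SE 0.033, edgeR adjusted p = 9.52e-06). Under N1-AcSpd the levels were 465, 484, 483 and 495 CPM in CD34- cells and 414, 411, 446 and 399 CPM in CD34+ cells. Again no CD34+ library reached a CD34- library, although the distance was smaller, most clearly in mouse 3. The means of 482 ± 12.1 and 418 ± 20.0 CPM differed by -13.3% (interval -17.5 to -8.99%), or -0.21 on the log2 scale (SE 0.033, edgeR adjusted p = 0.000252). Background for these calls is wide, since 32.1% of all tested genes were called between the cell types in untreated and 33.3% in N1-AcSpd cells, and 16.2% and 18.3% had groups that did not overlap with CD34+ lower. Scaling by library totals raised the median of all genes by 0.11 and 0.12 on the log2 scale in these comparisons and moved the calls from 3059 higher and 3064 lower in CD34+ cells to 4861 and 1762 in untreated, and from 3147 and 3199 to 4792 and 1904 in N1-AcSpd cells. Under it the Eif5a difference in N1-AcSpd cells was -0.09 (edgeR adjusted p = 0.0521) and no longer called, while relative to the median of all genes it was -0.20 under both scalings.

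The effect of N1-AcSpd on Eif5a was small, with the larger point estimate in HFSCs. In CD34- cells the increase was 2.70% (interval -2.19 to 7.83%, log2 0.04, SE 0.033, edgeR adjusted p = 0.701), with overlapping groups. In CD34+ cells every treated library, from 399 to 446 CPM, lay above every untreated library, from 371 to 390.0 CPM. This increase was 10.1% (interval 4.85 to 15.6%, log2 0.14, SE 0.033) with an unadjusted p of 0.000879 and an edgeR adjusted p = 0.0957, so it was not called, whereas DESeq2 gave an adjusted p = 0.000801. Groups that did not overlap with the treated one higher were found for 3.38% of tested genes in CD34+ cells. Averaged over both cell types the increase was 6.33% (interval 2.73 to 10.1%, log2 0.09, SE 0.023), was seen in 4 of 4 mice and was called (edgeR adjusted p = 0.0445), as was the case for 4.86% of tested genes. This call is close to the threshold. It held in 4 of the 20 fits that left out a library or a mouse (without CD34- N1-AcSpd mouse 1, CD34+ N1-AcSpd mouse 4, or CD34+ untreated mouse 2 or 3) and missed the threshold in every other one, the log2 change running from 0.07 to 0.10 and the edgeR adjusted p from 0.0265 to 0.163. It was also lost without a filter on low counts (adjusted p = 0.114) and after thinning all libraries to the smallest (adjusted p = 0.0604). The difference between the treatment effects, 0.10 on the log2 scale (interval 0.00 to 0.20), had the same sign in 4 of 4 mice and an unadjusted p of 0.0484, but an edgeR adjusted p = 1.00. No gene of the table was called for this difference by edgeR, 4.19% of genes having an unadjusted p under 0.05, and 71 were called by DESeq2, Eif5a not among them (DESeq2 adjusted p = 1.00). The order of the group means was thus CD34+ untreated, CD34+ N1-AcSpd, CD34- untreated and CD34- N1-AcSpd, and of these neighbours the last 2 overlapped.

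**Figure D1:**
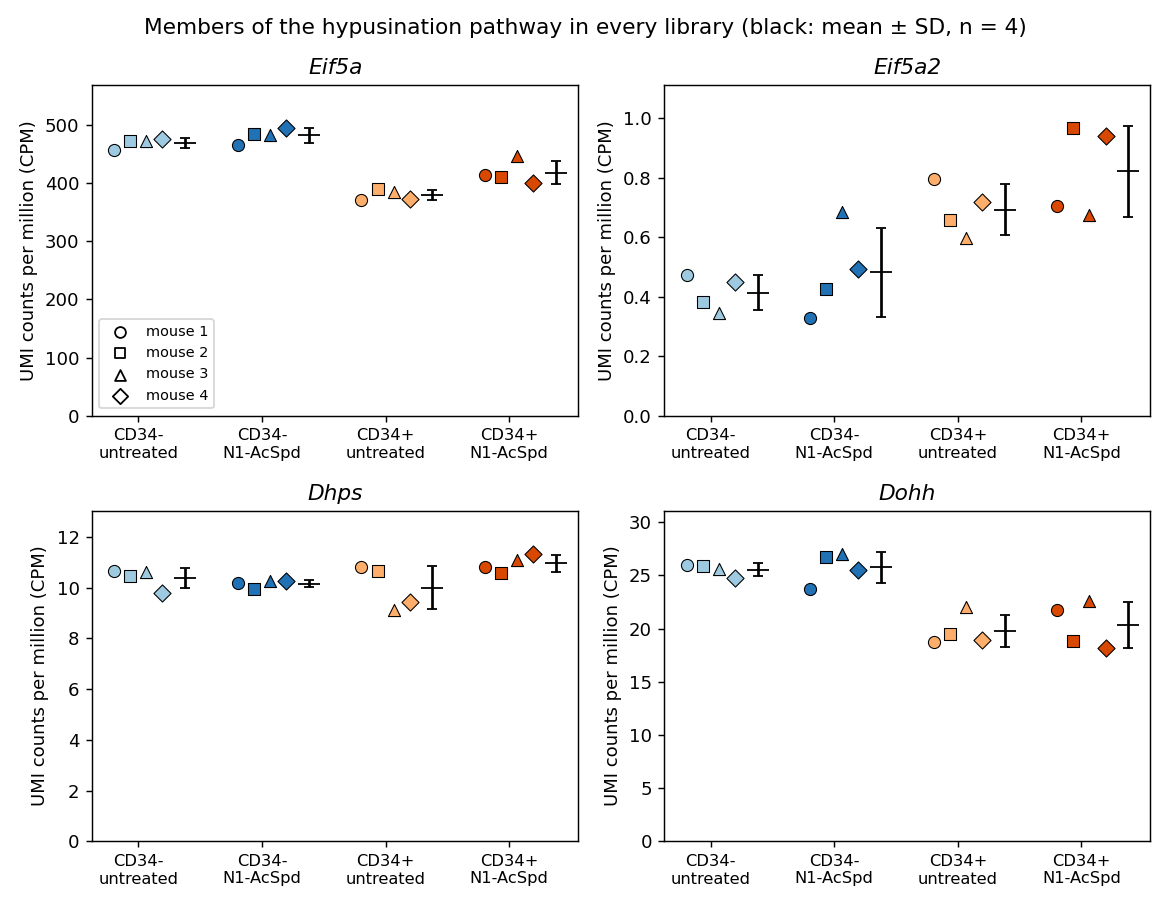
Each panel plots the level of 1 gene in CPM (vertical axis, from 0) in the 16 libraries, by group (horizontal axis), with a symbol for each mouse and the mean ± SD of 4 libraries in black. Eif5a and Dohh sit lower in both CD34+ groups, Eif5a2 sits higher there, and Dhps lies between 9.10 and 11.3 CPM throughout.

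Eif5a2, the second isoform gene, was scarce and ran the other way. Mice 1 to 4 gave 11, 6, 8 and 10 counts in CD34- untreated, 8, 12, 18 and 12 in CD34- N1-AcSpd, 14, 12, 11 and 14 in CD34+ untreated and 19, 17, 11 and 16 in CD34+ N1-AcSpd libraries. Counts this low carry a counting error of 22.9 to 40.8% a library. On the CPM scale the untreated libraries were at 0.473, 0.383, 0.346 and 0.451 in CD34- and at 0.796, 0.658, 0.596 and 0.719 in CD34+ cells, without overlap and with 4 of 4 mice higher in CD34+. The means were 0.413 ± 0.0588 and 0.692 ± 0.0855 CPM, and the difference of 66.3% (interval 8.16 to 156%, log2 0.73, SE 0.32) missed the threshold at an edgeR adjusted p = 0.0573. Groups without overlap and with CD34+ higher were found for 15.9% of tested genes. With N1-AcSpd the levels were 0.330, 0.426, 0.684 and 0.492 CPM in CD34- and 0.705, 0.967, 0.675 and 0.939 CPM in CD34+ cells. Here mouse 3 showed no difference, so the groups overlapped, but the increase in CD34+ cells of 68.9% (interval 16.6 to 145%, log2 0.76, SE 0.27) was called (edgeR adjusted p = 0.0237). The values of the untreated and the treated comparison were nearly equal, and the side of the threshold on which each fell is not a difference between them (difference of the log2 effects 0.02, interval -0.80 to 0.84, edgeR adjusted p = 1.00). The call in N1-AcSpd cells was kept in 13 of the 20 fits that left out a library or a mouse (edgeR adjusted p from 0.00879 to 0.182). It was lost without CD34- N1-AcSpd mouse 1 (0.61) or 2 (0.70), without CD34+ N1-AcSpd mouse 2 (0.67) or 4 (0.69), and without all libraries of mouse 1 (0.68), 2 (0.61) or 4 (0.70). DESeq2 did not make the call either (adjusted p = 0.0828). Under library totals the untreated difference of 0.85 was called (edgeR adjusted p = 0.0232).

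N1-AcSpd itself left Eif5a2 uncalled in both fractions. The change was 16.5% in CD34- cells (interval -24.3 to 79.5%, edgeR adjusted p = 0.863) and 18.4% in CD34+ cells (interval -18.2 to 71.2%, edgeR adjusted p = 0.826). Both intervals reach from a decrease to a large increase, so a moderate effect was not detectable at this depth.

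With Eif5a at lower and Eif5a2 at higher levels in CD34+ libraries, the share of Eif5a2 among the UMIs of both genes was higher there. A UMI marks the 3′ end of 1 molecule, so these counts were not divided by transcript length. Summed over 4 libraries, Eif5a2 had 35 UMIs against 39479 of Eif5a in CD34- untreated cells, a share of 0.0886% (exact 95% binomial interval 0.0617 to 0.123%), and 0.100% (0.0746 to 0.132%) in CD34- N1-AcSpd cells. It held 0.182% (0.136 to 0.239%) in CD34+ untreated and 0.194% (0.149 to 0.248%) in CD34+ N1-AcSpd cells. These intervals cover counting error only. Single libraries ran from 0.0709 to 0.141% in CD34- cells and from 0.151 to 0.235% in CD34+ cells, so that no CD34+ library was at or below a CD34- library. The closest were the N1-AcSpd libraries of mouse 3. They held 0.141% in CD34- cells (18 Eif5a2 UMIs, interval 0.0838 to 0.223%) and 0.151% in CD34+ cells (11 UMIs, 0.0754 to 0.270%). In that pair Eif5a2 itself was not higher in CD34+ cells (0.684 and 0.675 CPM), while Eif5a was lower. How often other pairs of genes separate in this way was not determined. The share is a score over both genes and was not tested. Even in the library with its highest share there were 425 Eif5a UMIs for each Eif5a2 UMI.

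**Figure D2:**
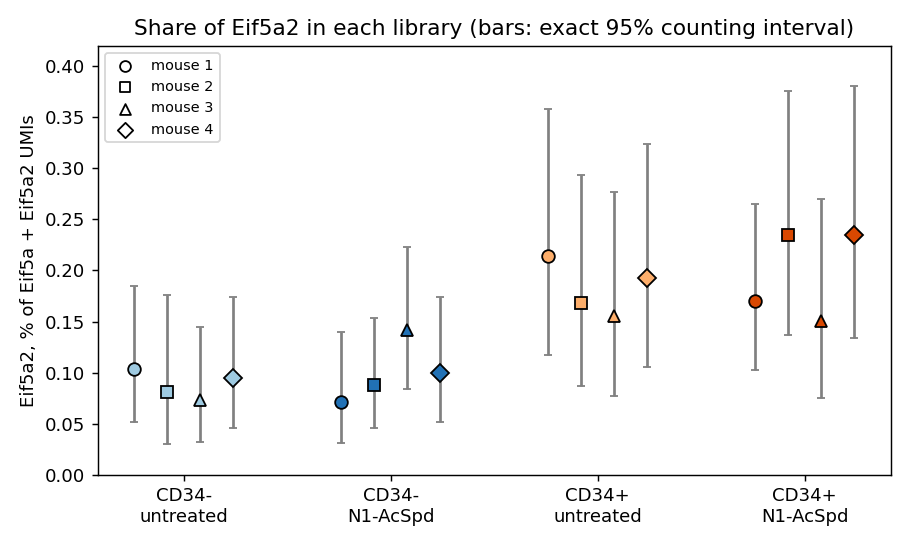
Points give the share of Eif5a2 among the UMIs of Eif5a and Eif5a2 (vertical axis, %) in each of the 16 libraries, by group and with a symbol for each mouse, and bars give the exact 95% binomial interval for counting error. The 8 CD34- libraries lie between 0.0709 and 0.141% and the 8 CD34+ libraries between 0.151 and 0.235%, with wide intervals that overlap between most libraries.

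Dhps (ENSMUSG00000060038), the synthase gene, lies on the plus strand at chr8:85071757-85075162 and was not called in any comparison. Its levels in mice 1 to 4 were 10.7, 10.5, 10.6 and 9.79 CPM in CD34- untreated and 10.8, 10.6, 9.10 and 9.45 CPM in CD34+ untreated libraries, the latter split between mice 1 and 2 and mice 3 and 4. With N1-AcSpd they were 10.2, 9.93, 10.3 and 10.2 CPM in CD34- and 10.8, 10.6, 11.1 and 11.3 CPM in CD34+ cells. In this last pair the CD34+ libraries all lay above the CD34- libraries. The corresponding difference was 7.82% (interval -1.51 to 18.0%, log2 0.11, SE 0.067, edgeR adjusted p = 0.221), higher in 4 of 4 mice, while 16.1% of tested genes had groups without overlap in this direction. In untreated cells it was -3.68% (interval -12.7 to 6.24%, edgeR adjusted p = 0.618), with 2 mice in each direction. The treatment effect was -2.14% in CD34- cells (interval -10.5 to 7.05%, edgeR adjusted p = 0.924) and 9.54% in CD34+ cells (interval -0.747 to 20.9%, edgeR adjusted p = 0.431), and mice 3 and 4 carried the latter. Under library totals the untreated cell type difference turned to 0.06 on the log2 scale and the one in N1-AcSpd cells rose to 0.23 and was called (edgeR adjusted p = 0.00471). Relative to the median of all genes the latter was 0.12 under both scalings.

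The counts of Dhps carry an uncertainty of annotation. Its last 128 bases overlap the end of Wdr83 (chr8:85075035-85081306), which runs on the opposite strand, and 20.9% of the 31-base words in the last 500 bases of Dhps occur there in reverse. Whether the counting used strand was not given in the sources used here, so tags of the genes cannot be told apart in the shared stretch. The Dhps count was 71.6 to 97.3% of the Wdr83 count, with a Pearson correlation of 0.49 over 16 libraries in log2 CPM and of 0.65 after removal of the group means, so the counts were related but not copies of each other. Wdr83 was not called in any comparison either, with log2 differences from -0.10 to 0.16.

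Dohh (ENSMUSG00000078440), the hydroxylase gene at chr10:81384428-81388352 on the plus strand, was lower in HFSCs. In untreated cells of mice 1 to 4 it was at 26.0, 25.9, 25.6 and 24.7 CPM in CD34- and at 18.8, 19.5, 22.0 and 19.0 CPM in CD34+ libraries. All 4 mice were lower in CD34+ cells and the groups did not overlap, as was the case in this direction for 16.2% of tested genes. The means of 25.5 ± 0.582 and 19.8 ± 1.5 CPM differed by -22.4% (interval -30.4 to -13.6%, log2 -0.37, SE 0.072, edgeR adjusted p = 0.00153). With N1-AcSpd the levels were 23.8, 26.7, 27.0 and 25.5 CPM in CD34- and 21.8, 18.8, 22.6 and 18.1 CPM in CD34+ cells. These groups did not overlap either, as for 18.3% of tested genes in this direction. The difference was -21.1% (interval -29.1 to -12.1%, log2 -0.34, SE 0.072, edgeR adjusted p = 0.00217). Of all tested genes, 16.1% were called lower in CD34+ cells in untreated and 16.8% in N1-AcSpd cells. Both calls of Dohh were kept in all 20 fits that left out a library or a mouse, as were those of Eif5a. Within each cell type N1-AcSpd left Dohh near its untreated level. The change was 0.796% in CD34- cells (interval -9.48 to 12.2%, edgeR adjusted p = 0.994) and 2.61% in CD34+ cells (interval -7.89 to 14.3%, edgeR adjusted p = 0.928).

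Dohh counts were nearly those of another gene model. Gm48551 (chr10:81384466-81391560) is an annotated protein-coding model on the same strand that takes in 3887 bases of Dohh and runs on past its end, and 66.7% of the 31-base words of Dohh also occur in it, though only 7.87% of those in its last 500 bases. In every library Gm48551 had between 7 and 23 more counts than Dohh, and Dohh held 95.9 to 99.0% of its count. Gm48551 gave cell type differences of -0.36 and -0.34 (edgeR adjusted p = 0.00121 and 0.00173). The tags may have been counted for both models, and the values of Dohh are uncertain to that extent.

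Eif5a and Dohh varied together over the 16 libraries, with a Pearson correlation of 0.90 and a Spearman correlation of 0.83 in log2 CPM. After removal of the group means the Pearson correlation was 0.66. Mouse 3, for example, had the highest Dohh level of both CD34+ groups and the highest Eif5a level of the treated one. Eif5a2 ran against both (Pearson -0.69 with Eif5a and -0.78 with Dohh), but within groups these values fell to -0.25 and -0.27. Dhps followed neither (0.03 with Eif5a and -0.20 with Dohh). The points share libraries and depth, and these correlations are descriptions.

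**Figure D3:**
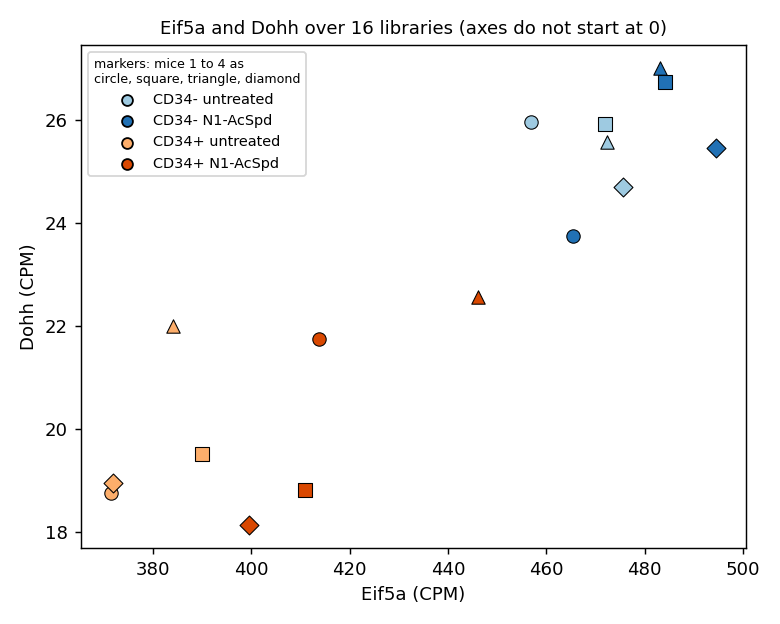
Each point is 1 of 16 libraries, with its Eif5a level (horizontal axis, CPM) and Dohh level (vertical axis, CPM), coloured by group and with a symbol for each mouse. The CD34- libraries lie at 457 to 495 CPM of Eif5a and 23.8 to 27.0 CPM of Dohh, and the CD34+ libraries at 371 to 446 and 18.1 to 22.6 CPM.

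Set side by side, 2 of the 4 genes were called between the cell types in untreated cells (Eif5a and Dohh, both lower in CD34+) and 3 of 4 in N1-AcSpd cells (Eif5a and Dohh lower, Eif5a2 higher), against 32.1% and 33.3% of all genes tested. No member was called for the treatment within CD34- cells, where 0.614% of genes were, or within CD34+ cells, where 0.325% were. With mouse as a block 349 genes were called in CD34- cells in place of 117, 152 in CD34+ cells in place of 62, and 1551 in the mean of both in place of 925, and no call of a member changed. DESeq2 size factors in edgeR gave 53 higher and 22 lower calls in CD34+ cells in place of 36 and 26. These comparisons share libraries, so that a high or low group enters more than 1 of them.

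**Figure D4:**
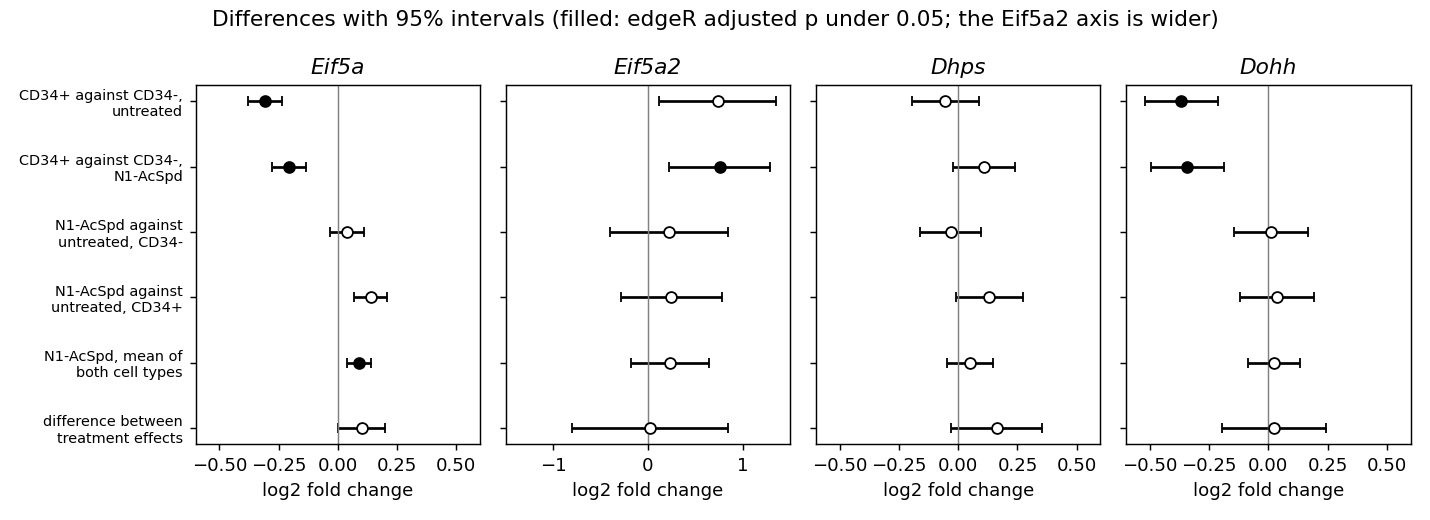
Points give the log2 fold change (horizontal axis) of each gene in the 6 comparisons, with 95% intervals, and filled points passed an edgeR adjusted p under 0.05. The cell type differences of Eif5a (-0.31 and -0.21) and Dohh (-0.37 and -0.34) lie below 0, that of Eif5a2 in N1-AcSpd cells (0.76) above it, and Eif5a alone is filled in a treatment comparison (0.09, mean of both cell types).

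The bases before the starts of the 4 genes are shown as a description of sequence. RefSeq windows of GRCm38.p6 were found for 4 of 4 genes, 6 of them for Eif5a, and were searched on both strands for CACGTG, the E-box core bound by MYC and related factors, and for CCGGAAGT, a core bound by ETS factors, whose reverse is ACTTCCGG. The second motif was chosen after the windows had been seen, and neither motif contains the other. In the 250 bases before the start, CACGTG stood in 6.02% and CCGGAAGT in either direction in 2.88% of the 32851 windows of all genes. Printed are the parts outside the exons of the gene itself, 5′ to 3′ in the direction of transcription, with both motifs in capitals. The Eif5a windows lie before 2 of its inner starts, inside introns of its longest transcripts, and the one with an E-box in the printed part is given first. The Eif5a windows not printed are 1 that holds the same E-box again, 185 bases before its start, and 3 that hold neither motif, among them that of the outermost start at chr11:69921958. The shares over all genes are per window, so a gene with 6 windows had more chances of a match.
Eif5a, chr11:69921387-69921636, minus strand: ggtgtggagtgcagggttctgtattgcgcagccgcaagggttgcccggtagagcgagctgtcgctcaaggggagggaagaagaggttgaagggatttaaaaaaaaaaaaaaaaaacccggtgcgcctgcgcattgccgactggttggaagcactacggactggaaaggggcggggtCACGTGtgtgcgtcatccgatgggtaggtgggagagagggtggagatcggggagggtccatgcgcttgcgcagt
Eif5a, chr11:69920631-69920800, minus strand: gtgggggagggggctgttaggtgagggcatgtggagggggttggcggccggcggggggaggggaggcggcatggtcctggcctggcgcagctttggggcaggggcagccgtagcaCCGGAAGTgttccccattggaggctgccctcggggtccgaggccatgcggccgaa
Dohh, chr10:81384184-81384427, plus strand: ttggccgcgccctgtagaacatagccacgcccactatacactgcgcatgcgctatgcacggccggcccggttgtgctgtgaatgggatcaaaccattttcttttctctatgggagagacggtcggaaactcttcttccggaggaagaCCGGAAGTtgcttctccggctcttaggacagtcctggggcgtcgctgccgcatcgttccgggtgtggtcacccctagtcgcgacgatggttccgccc
Dhps, chr8:85071507-85071756, plus strand: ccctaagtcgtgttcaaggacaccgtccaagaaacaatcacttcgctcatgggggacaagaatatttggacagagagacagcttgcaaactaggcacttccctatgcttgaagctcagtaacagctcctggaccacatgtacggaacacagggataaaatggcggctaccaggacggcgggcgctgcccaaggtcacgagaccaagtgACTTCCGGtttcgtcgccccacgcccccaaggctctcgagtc
Eif5a2, chr3:28781027-28781275, plus strand: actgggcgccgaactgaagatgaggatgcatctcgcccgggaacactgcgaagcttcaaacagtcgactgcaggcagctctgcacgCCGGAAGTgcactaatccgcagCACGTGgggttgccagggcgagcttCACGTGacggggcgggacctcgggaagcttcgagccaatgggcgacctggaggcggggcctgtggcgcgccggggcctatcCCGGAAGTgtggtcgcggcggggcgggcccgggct
CCGGAAGT began 103 bases before the start of Dohh and 55 bases before the last of the Eif5a starts. Its reverse began 42 bases before that of Dhps, and Eif5a2 held 2 copies, at 164 and 36 bases. CACGTG was found 74 bases before the Eif5a start whose window is printed first, 178 bases before the last Eif5a start in a part that is an exon of other transcripts and is not printed, and in Eif5a2 at 142 and 117 bases. It was in neither enzyme gene. Eif5a and Eif5a2 each held both motifs in at least 1 window. A match is a description of letters and does not show that a factor binds, and its part in the levels was not tested.

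The genes most like each member in pattern were sought among up to 9397 named genes averaging 50 or more counts, by the Pearson correlation of log2 CPM over the 16 libraries. For Eif5a they were Fgd4 (0.98), Fubp1 (0.98) and Hadhb (0.98), and within groups these values were 0.85, 0.89 and 0.85. For Dohh they were Mrto4 (0.96), Glrx5 (0.95) and Trim30a (0.95). For Eif5a2 they were Dsn1 (0.93), Rnf215 (0.90) and Fam111a (0.90), and for Dhps they included Hes1 (0.77) and Sh2b1 (0.76). The highest of many correlations is high by selection, and for Eif5a2, with 6 to 19 counts a library, it describes few counts.

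Genes related to the pathway, and others set beside it, were taken as 4 lists. The enzymes of spermidine supply and use were mostly lower in HFSCs, with 5 of 8 called lower and 1 higher in CD34+ cells in each condition and a median log2 difference of -0.38 in untreated and -0.37 in N1-AcSpd cells, against 0.02 and -0.01 for all genes. Of all genes, 16.1% were called lower and 16.1% higher in untreated cells, and 16.8% lower and 16.5% higher in N1-AcSpd cells. In untreated cells Odc1, the ornithine decarboxylase that starts polyamine synthesis, fell by 0.57 (SE 0.09, edgeR adjusted p = 0.000343) on the log2 scale. Srm, the spermidine synthase whose product DHPS consumes, fell by 0.51 (SE 0.07, edgeR adjusted p = 0.000113). Paox, an oxidase of acetylated polyamines, was higher by 0.33 (SE 0.08, edgeR adjusted p = 0.00686). The other genes of spermidine use went the other way in untreated cells. Smox was at -0.82 (SE 0.13, edgeR adjusted p = 0.000261) and Sat1 at -0.71 (SE 0.12, edgeR adjusted p = 0.000547). Of these 8 genes, 3 were called for the treatment in CD34- cells, against 0.614% of all genes. Amd1, which encodes the decarboxylase that supplies aminopropyl groups, fell there by 0.31 (SE 0.06, edgeR adjusted p = 0.0420). Its copy Amd2 fell by 0.30 (edgeR adjusted p = 0.0429), but its counts were nearly those of Amd1 and they cannot be told apart. Sat1, the acetyltransferase that makes N1-AcSpd from spermidine, rose by 0.60 (SE 0.12, edgeR adjusted p = 0.0455), from 112 ± 12.3 to 171 ± 26.9 CPM. In CD34+ cells 0 of 8 were called, against 0.325% of all genes, with Sat1 at 0.45 (adjusted p = 0.144) and Amd1 at -0.27 (adjusted p = 0.0932). In the mean of both cell types the same 3 genes were called, against 4.86% of all genes. Sat1 was at 0.53 (edgeR adjusted p = 0.00558), Amd1 at -0.29 (adjusted p = 0.00396) and Amd2 at -0.27 (adjusted p = 0.00446). Their treatment effects were not shown to differ between the cell types, the test of that difference having unadjusted p-values from 0.393 to 0.639 in edgeR (adjusted p = 1.00 for each).

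Few genes were listed for the handling of eIF5A after its synthesis. Of the 4 genes for eIF5A acetylation and nuclear export, 0 were called between the cell types in untreated cells and 1 in N1-AcSpd cells, Hdac6, a deacetylase, at 0.61 (SE 0.20, edgeR adjusted p = 0.0290), against 32.1% and 33.3% of all genes. Sirt2, another deacetylase, was at 0.13 in both conditions (edgeR adjusted p = 0.0678 and 0.0629) and Kat2b, the acetyltransferase of eIF5A, at -0.13 and -0.57 (edgeR adjusted p = 0.904 and 0.488), the latter with a CD34+ library at 1.25 CPM. None of the 4 was called for the treatment. The median differences between the cell types were 0.00 and 0.01.

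The elongation and termination factors that work beside eIF5A were lower in HFSCs where they were called. Of 11 listed, 9 were tested, and 6 were called lower in untreated and 5 in N1-AcSpd cells with 0 higher, the median being -0.16 and -0.18. Over all genes 16.1% and 16.8% were called lower, and 16.1% and 16.5% higher. Abce1, the ATPase that splits ribosomes after termination, had the largest difference of the 9, and fell by 0.74 in untreated (SE 0.07, edgeR adjusted p = 3.24e-06) and by 0.63 in N1-AcSpd cells (adjusted p = 1.17e-05). Averaged over both cell types N1-AcSpd raised Abce1 by 0.22 (SE 0.05, edgeR adjusted p = 0.0246). Eef1b2, an exchange factor for eEF1A, fell by 0.19 in the same average (SE 0.04, edgeR adjusted p = 0.0144), so the 2 called members moved in opposite directions, in a comparison that called 4.86% of all genes. Neither was called within a single cell type, where 0 of the 9 were.

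Diphthamide, the modified histidine of eEF2, served as a second rare modification of a translation factor. Of its 7 synthesis genes, 1 was called higher and 1 lower in untreated and 1 higher and 2 lower in N1-AcSpd cells, with medians of -0.00 and -0.02. These shares are near those of all genes, of which 32.1% and 33.3% were called. Dph3, an electron carrier for the first step, fell by 0.26 (SE 0.04, edgeR adjusted p = 0.000415) and 0.25 (adjusted p = 0.000573). Dph7 was higher by 0.59 (SE 0.12, edgeR adjusted p = 0.00148) and 0.45 (adjusted p = 0.00811). Dph2, a subunit of the enzyme of the first step, fell by 0.32 in N1-AcSpd cells (SE 0.09, edgeR adjusted p = 0.0166) and was at -0.00 in untreated cells. None of the 7 was called for the treatment.

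**Figure D5:**
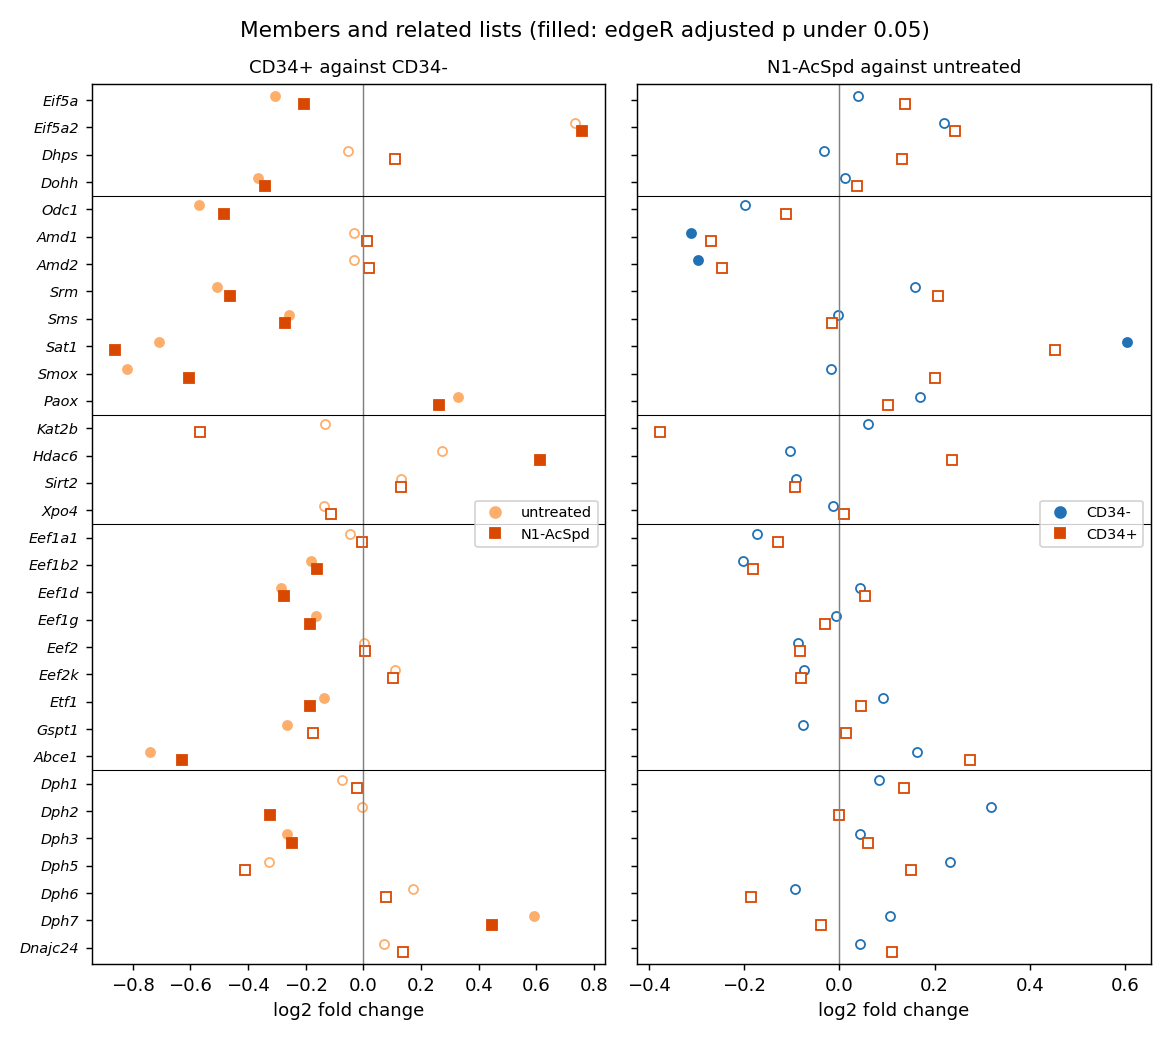
Points give the log2 fold change (horizontal axis) of 32 genes, the 4 members on top and then the lists for spermidine, eIF5A acetylation and export, elongation and termination, and diphthamide, separated by lines. The left panel compares CD34+ with CD34- cells, the right one N1-AcSpd with untreated cells, and filled points passed an edgeR adjusted p under 0.05, which in the right panel are Amd1 (-0.31), Amd2 (-0.30) and Sat1 (0.60), all in CD34- cells.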

How the data were processed

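RNA of sorted organoid cells was measured in 16 libraries of 4 groups, with groups taken from the labels and mice read from a code in them. The deposited values are counts of unique UMI tags per gene. The authors demultiplexed reads with FLEXBAR, pseudoaligned the second read to mm10 with kallisto (0.45.0 in the submitters' processing notes), assigned tags with BEDTools and counted them in R. Their annotation release and use of strand were not given in the sources used here. Empty cells (156050) were read as 0, and 62 identifiers without a symbol held 0.116% of counts. Within groups no library was a copy of another, the chi-square per degree of freedom being at least 25.4. Libraries of different groups were not compared in this way.

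The 19049 genes averaging 5 or more counts entered two-sided quasi-likelihood tests (edgeR 4.0.16, R 4.3.3) with TMM scaling, 1 mean per group, all 16 libraries in the fit and no covariates, and were called at a Benjamini-Hochberg adjusted p under 0.05 over all genes. All adjusted p-values in the text that name no other tool are of this fit. The comparisons were CD34+ against CD34- in each condition, N1-AcSpd against untreated in each cell type, the mean of the treatment effects and their difference. SEs are the size of the log2 fold change over the square root of F. For Eif5a2 and Dhps, whose p the tool raised to its Poisson counterpart, they are at least the counting error of the group sums. Binomial intervals cover counting error only. Gene positions come from GENCODE vM21 and promoter windows from RefSeq. The script was tested on simulated data.

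The members and lists were chosen with earlier results of these data known. By rule the 4 members are named in every comparison, with the 3 genes most correlated with each (1 of which is not reported here), and from each list the genes called in a treatment comparison or else up to 3 with the smallest adjusted p between cell types. Odc1, Srm, Paox and Smox were named besides, after their values were seen. Alternatives replaced the scaling (by DESeq2 size factors, or by library totals), the filter (by filterByExpr, or by none) or the test (by DESeq2 1.42.0), and others were mouse as a block, only the compared groups, thinning to 15480075 UMIs, Eif5a-like models added to Eif5a, and the omission of single libraries and of single mice. The replicate numbers pair libraries that share a code in their labels, which was read as the donor mouse. Deviations from group means of these same-mouse libraries had a mean correlation of 0.013 over all tested genes (-0.069 to 0.086, 24 pairs). Genes with few counts weigh as much in it as others, so it does not show how large the effect of the donor is.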

Additional observations from a re-analysis of the deposited data

How the results depend on the processing

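The cell type differences of Eif5a in untreated cells and of Dohh in both conditions kept their direction and their call under every alternative, and that of Eif5a in N1-AcSpd cells under all but library totals. Of the members' values under alternatives, 612 kept direction and side of the threshold, 30 lost and 3 gained a call, and 25 changed sign, all of the latter being values that were not called. Library totals gave, on the log2 scale, -0.089 for Eif5a and 0.23 for Dhps in N1-AcSpd cells, and 0.061 for Dhps and 0.85 for Eif5a2 in untreated cells, the shift of all genes by 0.11 to 0.12 coming with the scaling. The Eif5a2 difference in N1-AcSpd cells lost its call at 0.76 without a filter, 0.74 by DESeq2, 0.77 with the compared groups only and 0.82 after thinning, and the mean treatment effect of Eif5a at 0.088 without a filter and at 0.086 after thinning. DESeq2 called the treatment effect of Eif5a in CD34+ cells at 0.15, and thinning turned the Dohh difference of treatment effects to -0.0031. Other causes were not tested. Counts of genes called for the treatment in CD34- cells, in CD34+ cells and in the mean of both were 35, 35 and 445 without a filter, 349, 152 and 1551 with mouse as a block, and 558, 431 and 1546 by DESeq2, which called 71 genes for the difference of effects. With the compared groups only they were 0 and 23, and after thinning 77 and 40 in the single cell types. The block changed no other call. Leaving out a library or a mouse gave 4 to 157 genes in CD34- cells, 3 to 73 in CD34+ cells, 175 to 1062 in the mean and 0 to 11 for the difference, the lowest 3 counts of the treatment without mouse 4, 4 and 1. In these fits Eif5a ran from 0.072 to 0.10 in the mean treatment effect, and Eif5a2 from 0.61 to 1.05 between the cell types in N1-AcSpd cells, from -0.063 to 0.43 for the treatment in CD34- cells and from -0.12 to 0.33 for the difference of effects. Dohh ran from -0.013 to 0.056 in CD34- cells, from -0.022 to 0.11 in CD34+ cells, from -0.0027 to 0.056 in the mean and from -0.079 to 0.11 for the difference. Depth limits Eif5a2 most, with 6 to 19 counts a library.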
